A study of Mus musculus with 27 samples.

Results

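The genes described here are 8 transcription and chromatin regulators of germ cells, namely Sohlh1, Sohlh2, Figla, Dmrtb1, Stra8, Mybl1, Tcfl5 and Brdt. They were chosen by name, with earlier results of these data known, and each was found once among the 24065 genes of the RNA-Seq table. Expression was measured in whole C57BL/6J embryos at E8.5, with a library made from each of 3 WT and 3 Dnmt3b-/- littermates, using total RNA depleted of ribosomal RNA. The mutants were homozygous for a catalytically inactive Dnmt3b allele, made by crossing Dnmt3b-2lox mice with an ACTB-Cre deleter line that removes the floxed part in all tissues, and they came from matings of heterozygous parents. Neither group received a treatment, and Cre was used to make the parental allele. The question addressed was whether the germ cell genes that are higher in Dnmt3b-/- embryos are accompanied by the regulators that switch them on in the gonad.

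Germ cells use dedicated regulators that most somatic cells keep silent. SOHLH1, SOHLH2 and FIGLA are basic helix-loop-helix (bHLH) factors of spermatogonia and young oocytes, DMRTB1 guides spermatogonia towards meiosis, and STRA8 is induced by retinoic acid at meiotic entry. MYBL1 (A-MYB) drives genes of pachytene spermatocytes, among them those of the piRNA pathway, TCFL5 is a bHLH factor of spermatocytes, and BRDT is the testis member of the BET family, which reads acetylated histones. Many germline promoters carry a CpG island or a weaker CpG cluster that is methylated in the embryo after implantation, and DNMT3B is an enzyme that deposits this methylation.

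The promoters of these genes differed in how many CpG sites they offered. The set of RefSeq promoters used (GRCm38.p6) held 7 of the 8 genes and had no entry for Mybl1. The 250 bases before the transcription start are printed 5′ to 3′ on the strand of the gene, with every CpG in capitals. They are shown for the 3 genes with the largest increase and for the 2 genes at 0 or 1 counts, so that these groups can be compared. The printed windows cover chr3:55181794-55182043 (plus strand) for Sohlh2, chr6:34920698-34920947 (plus) for Stra8, chr5:107330944-107331193 (plus) for Brdt, chr2:25847249-25847498 (minus) for Sohlh1 and chr6:86016941-86017190 (plus) for Figla.
Sohlh2: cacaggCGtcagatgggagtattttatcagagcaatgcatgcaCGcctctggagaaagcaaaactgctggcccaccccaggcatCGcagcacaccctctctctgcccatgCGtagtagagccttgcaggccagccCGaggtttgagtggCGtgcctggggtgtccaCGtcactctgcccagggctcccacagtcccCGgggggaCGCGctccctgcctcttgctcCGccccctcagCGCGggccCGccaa
Stra8: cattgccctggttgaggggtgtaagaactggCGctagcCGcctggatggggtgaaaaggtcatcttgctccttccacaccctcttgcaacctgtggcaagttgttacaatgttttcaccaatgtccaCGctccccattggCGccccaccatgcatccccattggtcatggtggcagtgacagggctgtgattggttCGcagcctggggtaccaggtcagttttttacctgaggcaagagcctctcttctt
Brdt: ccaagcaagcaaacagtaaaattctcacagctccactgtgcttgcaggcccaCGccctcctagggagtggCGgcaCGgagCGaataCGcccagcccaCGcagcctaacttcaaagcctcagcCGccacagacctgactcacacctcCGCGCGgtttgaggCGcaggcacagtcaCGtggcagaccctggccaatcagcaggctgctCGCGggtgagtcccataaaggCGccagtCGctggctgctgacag
Sohlh1: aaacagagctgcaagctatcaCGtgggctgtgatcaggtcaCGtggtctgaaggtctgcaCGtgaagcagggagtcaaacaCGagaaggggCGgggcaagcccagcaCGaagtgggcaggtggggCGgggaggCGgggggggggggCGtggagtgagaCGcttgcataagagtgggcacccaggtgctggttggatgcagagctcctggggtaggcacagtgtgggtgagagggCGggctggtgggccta
Figla: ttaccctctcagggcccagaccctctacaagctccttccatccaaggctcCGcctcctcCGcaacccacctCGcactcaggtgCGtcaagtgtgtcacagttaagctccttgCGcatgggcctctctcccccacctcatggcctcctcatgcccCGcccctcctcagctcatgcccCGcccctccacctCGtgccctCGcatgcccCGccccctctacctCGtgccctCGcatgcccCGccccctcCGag

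These windows held 14 CpG sites for Sohlh2, 5 for Stra8 and 16 for Brdt, and 11 for Sohlh1 and 14 for Figla. Sohlh2, which rose, and Figla, which stayed at 0 or near it, had the same number. Bases past the start were not counted. Over the 32851 promoters of the table the quartiles of this count were 2, 6 and 16. Of the other genes that rose, Tcfl5 had 22 CpG sites, and the pair of annotated starts of Dmrtb1 had 21 and 7. The hexamer CACGTG, an E-box bound by many bHLH factors, occurred 3 times before Sohlh1, with the first bases 231, 211 and 192 bases before the start, and once before Brdt at 78 bases. It was searched on both strands and itself holds a CpG, and 6.02% of all promoters held it. The MYB-type motif CAACNG occurred 3 times before Tcfl5, at 140, 83 and 22 bases before the start, and 29.3% of all promoters held it. The E2F-type motif TCCCGC occurred once, 74 bases before the start of Tcfl5, and 16.9% of all promoters held it. Such matches describe the letters of these windows, and methylation was not analysed here.

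The libraries held 41489332 to 58470286 counts on genes, and a limit of 3 counts, which is what a count of 0 allows, corresponded to 2.37 to 3.49 normalized counts. This limit covers counting error only, and the reads carried no molecular identifiers. Dnmt3b itself, the targeted gene, had 9197, 12195 and 7120 counts in the WT and 4068, 3904 and 4196 in the Dnmt3b-/- embryos (log2 fold change -1.04, standard error 0.27, adjusted p = 0.0169). Its count adds all exons, and its adjusted p was 0.0608, 0.0613 and 0.0555 without Dnmt3b-/- embryos 1, 2 and 3. Without WT embryo 2, which had the most Dnmt3b, its log2 fold change was -0.61 (adjusted p = 0.00260). WT embryo 2 stood apart in other genes as well, with 731 counts of Pou5f1, a gene of pluripotent and germ cells, against 28 to 90 in the other embryos, 76312 counts of Apob of the yolk sac endoderm against 3481 to 34216, and 393 counts of the globin Hbb-y against 2439 to 17652.

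Of the 8 regulators, 5 were called higher in Dnmt3b-/- embryos, at a fold change over 2 and an adjusted p under 0.05 in the quasi-likelihood test of edgeR over 15114 genes. These were Sohlh2, Stra8, Brdt, Dmrtb1 and Tcfl5, whereas 2.12% of all genes tested were called higher. The 8 were chosen with earlier results of these data known, so their share gives no independent support. Mybl1 passed the adjusted p but not the fold change, 0 of the 8 were called lower (3.78% of all genes were), and Sohlh1 and Figla had too few counts to be tested. The 6 tested genes each lay higher in all Dnmt3b-/- than in all WT embryos, which was so for 25.3% of the genes tested. Sohlh2, Stra8 and Dmrtb1 passed the filter of a mean of 10 counts only through the Dnmt3b-/- embryos, so that being tested already required them to differ. The p-values measure the spread between 3 embryos of each genotype. In whole embryos more cells with a transcript and more transcript per cell cannot be told apart. The plot of the 8 regulators by embryo shows these values.

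**Figure D1:**
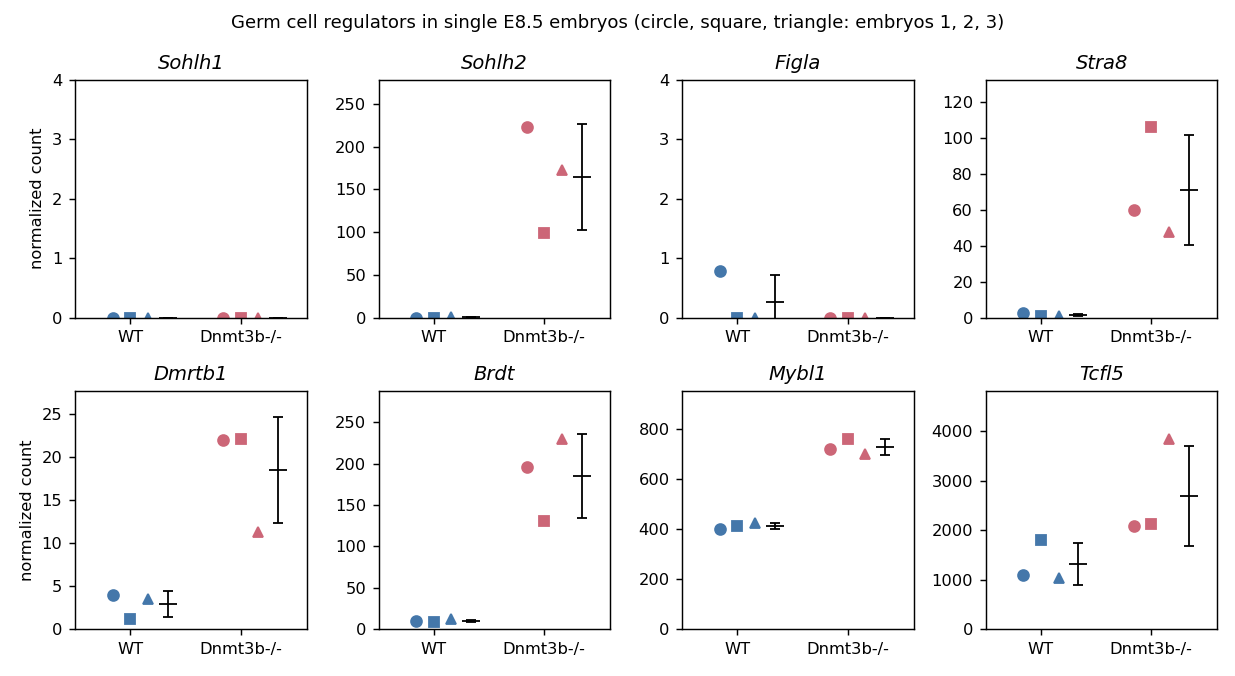
Normalized counts (vertical axes, linear, a separate scale for each gene) of the 8 regulators in 3 WT and 3 Dnmt3b-/- embryos, with 1 symbol per embryo and the mean ± SD in black beside each group. Sohlh2, Stra8 and Brdt lie at or near 0 in WT embryos and above 40 in every Dnmt3b-/- embryo, Dmrtb1, Mybl1 and Tcfl5 are higher without overlap, and Sohlh1 and Figla remain at or below 1.

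Among the bHLH factors of early germ cells, Sohlh2 was the only one with a signal. Sohlh2 (chr3:55182044-55209957, plus strand) had 0, 0 and 1 counts in WT embryos 1, 2 and 3 and 223, 85 and 153 counts in Dnmt3b-/- embryos 1, 2 and 3. It was therefore under the counting limit in the WT group and well above it in every mutant, with the highest mutant 2.25 times the lowest after normalization. The normalized count went from 0.294 ± 0.509 to 164.8 ± 62.3 (SD, n = 3 each). The ratio of the summed counts was 549.6, with a 95% counting interval of 98.15 to 21750 that is wide because it rests on a single WT read pair. The fitted log2 fold change depends on the prior count for the same reason. It was 8.59 (standard error 0.71, adjusted p = 0.000414), 10.33 without WT embryo 3, whose read pair was the only one in the group, and 6.99 or 4.93 in limma with a pseudocount of 1 or 5. Its level per length reached 1.46 FPKM, which was above that of 55.2% of all genes with a known length in the Dnmt3b-/- embryos.

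Sohlh1, whose protein is the known partner of SOHLH2 in spermatogonia and oocytes, did not appear. Sohlh1 (chr2:25842995-25847248, minus strand) had 0 counts in each of the 6 embryos, which allows a level of up to 3 counts in each. Figla (chr6:86017191-86020996, plus strand), which is needed for the zona pellucida genes, had 1 count in WT embryo 1 and 0 in the other 5 embryos. At this depth neither gene was detectable beyond the limit in either genotype, and no fold change is given. The E proteins with which germ cell bHLH factors pair were abundant in both genotypes. Tcf3, which encodes E12 and E47, was at 59.8 FPKM in WT and 55.6 FPKM in Dnmt3b-/- embryos (log2 fold change -0.11, adjusted p = 0.381), and Tcf12 was at 58.5 and 74.0 FPKM (0.34, adjusted p = 0.0312). With the trend of counts on GC content and exon length taken out of each library, the change of Tcf12 was 0.10 (adjusted p = 0.461).

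Stra8 and Dmrtb1, which act at the transition to meiosis, rose to different levels. Stra8 (chr6:34920948-34939344, plus strand) had 3, 1 and 1 counts in the WT and 60, 91 and 42 in the Dnmt3b-/- embryos. Each WT embryo was at or under the counting limit, and the lowest mutant lay well above the highest WT embryo. The ratio of the summed counts was 46.0 (95% counting interval 19.4 to 143.3), the fitted log2 fold change 5.44 (standard error 0.62, adjusted p = 0.000823), and the level 1.01 FPKM in Dnmt3b-/- embryos. In limma with a pseudocount of 1 or 5 its log2 fold change was 4.83 or 3.49.

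Dmrtb1 (chr4:107676290-107684230, minus strand) had 5, 1 and 4 counts in the WT and 22, 19 and 10 in the Dnmt3b-/- embryos. The groups did not overlap, but the gene stayed the weakest of those called, at 0.194 FPKM. The ratio of the summed counts was 6.08 (95% counting interval 3.05 to 13.4), and the log2 fold change was 2.58 (standard error 0.67, adjusted p = 0.0176). With a mean of 10.2 counts it only just passed the filter, and the adjusted p was 0.0516 without WT embryo 1 and 0.0511 without WT embryo 3. Without WT embryo 2 the log2 fold change was 2.27 (adjusted p = 0.0456), and in limma with a pseudocount of 5 it was 1.56. It failed the filter without Dnmt3b-/- embryo 1 and without Dnmt3b-/- embryo 2.

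Brdt (chr5:107331194-107387058, plus strand) had 12, 7 and 13 counts in the WT and 196, 112 and 204 in the Dnmt3b-/- embryos. It was thus detectable in every WT embryo at a low level, and the lowest mutant lay far above the highest WT embryo. The normalized count rose from 9.65 ± 1.73 to 185 ± 51 (SD, n = 3 each), an 18.9-fold increase (log2 fold change 4.24, standard error 0.35, adjusted p = 0.000430). The level per length went from 0.0400 to 0.769 FPKM. Brd2, a BET gene expressed in all tissues, was at 42.5 FPKM in WT and 55.6 FPKM in Dnmt3b-/- embryos, with a log2 fold change of 0.39 (adjusted p = 0.00497). The transcript of the testis member thus stayed below that of Brd2 in the mutants.

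Tcfl5 and Mybl1 differed from the other regulators in being clearly expressed in WT embryos. Tcfl5 (chr2:180621956-180642691, minus strand) had 1373, 1579 and 1180 counts in the WT and 2090, 1819 and 3411 in the Dnmt3b-/- embryos. After normalization these were 1084, 1807 and 1041 in the WT and 2087, 2116 and 3853 in the Dnmt3b-/- embryos, so that the highest WT embryo, number 2, came close to the lowest mutants. The increase was 2.05-fold (log2 fold change 1.04, standard error 0.29, adjusted p = 0.0240), just over the threshold.

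The call of Tcfl5 rested on single embryos. Its log2 fold change was 0.92 (adjusted p = 0.0824) without WT embryo 1, 0.89 (adjusted p = 0.0693) without WT embryo 3 and 0.70 (adjusted p = 0.0762) without Dnmt3b-/- embryo 3. Without WT embryo 2 it was 1.34 (adjusted p = 0.00500). With scaling to total counts it was 0.95, under the fold threshold, at an adjusted p of 0.0288. Tcfl5 shares 237 bases with Col9a3 on the opposite strand. Col9a3 itself had 354 counts over the WT and 199 over the Dnmt3b-/- embryos, which is far below Tcfl5, and the strand setting of the counting is not given in the sources used here.

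Mybl1 (chr1:9667411-9700209, minus strand) had 504, 360 and 481 counts in the WT and 719, 653 and 618 in the Dnmt3b-/- embryos. Its normalized counts were the most even of the 6 tested genes, at 411 ± 13 in WT and 725 ± 31 in Dnmt3b-/- embryos (SD, n = 3 each), and the groups lay far apart. The difference was 1.76-fold (log2 fold change 0.82, standard error 0.12, adjusted p = 0.00159), at 1.72 and 3.03 FPKM. With the GC and length trend removed, it was 0.12 (adjusted p = 0.515). The exons of Mybl1 have a GC content of 37.0%, the lowest of the 8 genes, and the part of base composition in this difference was not tested further.

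The order of the 8 genes by level per length in Dnmt3b-/- embryos was Tcfl5, Mybl1, Sohlh2, Stra8, Brdt, Dmrtb1, with Figla and Sohlh1 at 0. Sohlh2 (1.46 ± 0.55 FPKM), Stra8 (1.01 ± 0.44) and Brdt (0.769 ± 0.211) lay close together (SD over 3 embryos). Sohlh2 was above Brdt in each of the 3 mutants, at 1.98 and 0.812, 0.877 and 0.540, and 1.53 and 0.955 FPKM. Stra8 was above both in Dnmt3b-/- embryo 2 and below both in embryo 3. The differences between these genes were not tested. In WT embryos only Tcfl5 (12.3 FPKM) and Mybl1 (1.72 FPKM) exceeded 0.05 FPKM. The mutant embryos did not rank alike from gene to gene. Dnmt3b-/- embryo 1 was highest for Sohlh2, embryo 2 for Stra8 and embryo 3 for Brdt and Tcfl5, while embryo 2 was lowest for Sohlh2 and Brdt. The plot of levels per length sets these genes beside their relatives.

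**Figure D2:**
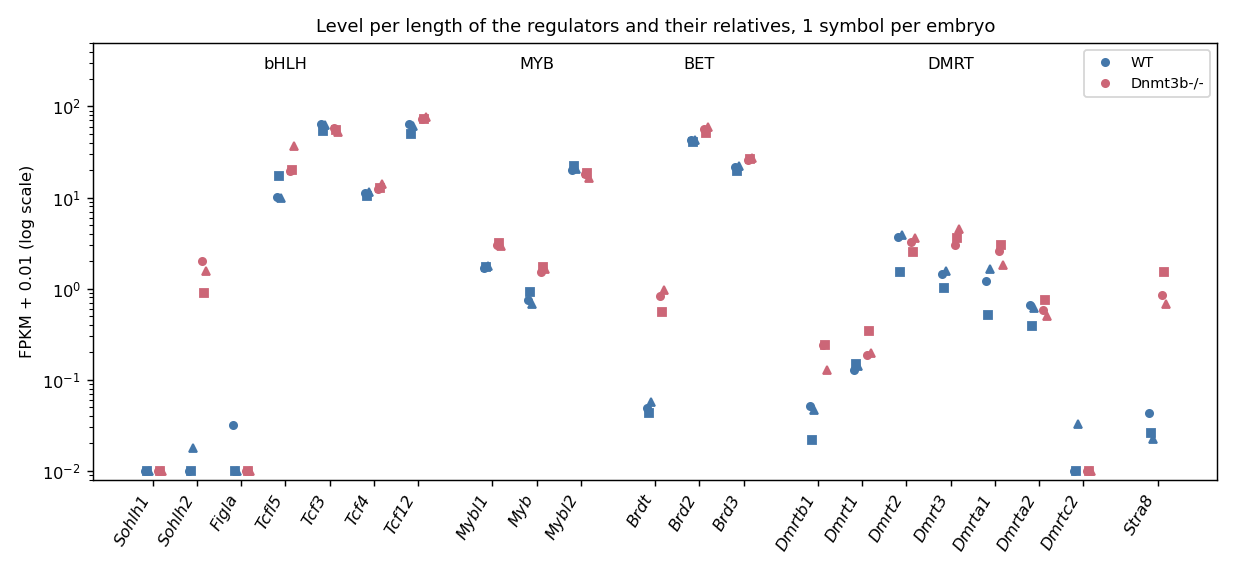
Level per length (vertical axis, FPKM + 0.01, log scale) of the 8 regulators and of relatives from the same protein families, with 1 symbol per embryo for 3 WT and 3 Dnmt3b-/- embryos. Sohlh2, Brdt and Stra8 rise in the mutants from near the bottom of the scale to about 1 FPKM, below Brd2, Brd3, Tcf3 and Tcf12 in both genotypes, while Sohlh1 stays at 0.

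Most of the relatives were expressed in both genotypes. Of 16 family relatives in the table, 15 were tested, and 3 were called higher and 0 lower, beside 2.12% and 3.78% of all genes tested. The median log2 fold change was 0.39 beside -0.03 over all genes tested. An adjusted p below 0.05 alone was reached upwards by 10 relatives, where 17.6% of all genes reached it, and downwards by 1. Dmrt3, a neural and mesodermal relative of Dmrtb1, had 208, 100 and 201 counts in the WT and 347, 354 and 454 in the Dnmt3b-/- embryos (log2 fold change 1.47, standard error 0.23, adjusted p = 0.00228). Myb, a blood cell relative of Mybl1, went from 0.772 to 1.62 FPKM (1.07, adjusted p = 0.00405), and was at 0.98 without WT embryo 3. Mybl2, the relative of dividing cells, was at 21.0 and 17.7 FPKM (-0.24, adjusted p = 0.0385), and its change was 0.10 (adjusted p = 0.356) with the GC and length trend removed. The third called gene, Dmrta1, was called 1 of 6 times when an embryo was left out, namely without WT embryo 3. Its log2 fold change went from 1.13 to 0.78 (adjusted p = 0.182) with that trend removed, and Myb fell to 0.87 (adjusted p = 0.0115) there.

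**Figure D3:**
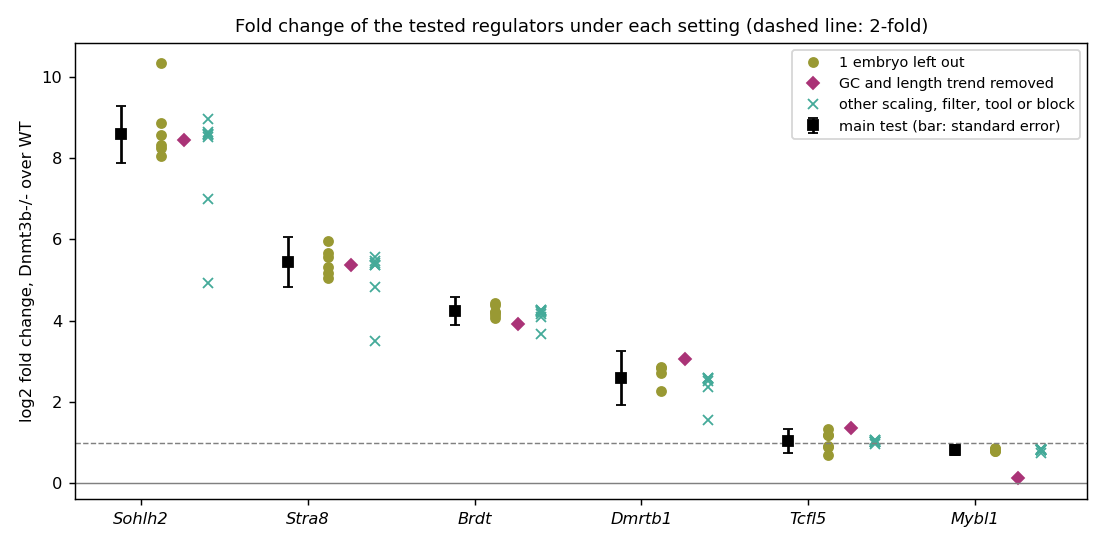
Log2 ratio of Dnmt3b-/- to WT expression (vertical axis) for the 6 tested regulators, with the main test and its standard error as black squares, fits without 1 embryo as circles, the fit with the GC and length trend taken out as diamonds, and other settings as crosses. Sohlh2, Stra8 and Brdt stay above 3 throughout, Tcfl5 lies on either side of the 2-fold line, and Mybl1 falls to 0.12 in 1 setting.

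The genes described next come from lists of germ cell genes that were drawn up with earlier results of these data known, so their counts describe the lists and give no independent support. Over all genes tested, 2.12% were called higher and 3.78% lower. Among 30 other germ cell regulators in the table, 22 were tested, 2 were called higher and 0 lower, with a median log2 fold change of 0.30. Taf7l, a testis paralog of a general transcription factor subunit, had 1, 3 and 1 counts in the WT and 305, 168 and 248 in the Dnmt3b-/- embryos (7.28, standard error 0.48, adjusted p = 0.000246), and its log2 fold change was 8.09 without WT embryo 2. The ratio of its summed counts was 171.9 (95% counting interval 73.32 to 531.0). Tex15, which is needed for transposon silencing and recombination in male germ cells, went from 1.66 to 3.67 FPKM (1.15, adjusted p = 0.0161). It was called 2 of 6 times when an embryo was left out, namely without WT embryo 2 and without Dnmt3b-/- embryo 1, and had a log2 fold change of 0.54 (adjusted p = 0.190) with the GC and length trend removed. Of the uncalled genes with the most counts, Sall4 of stem and germ cells was at 48.7 and 38.2 FPKM (-0.35, adjusted p = 0.0831) and Brwd1 at 14.5 and 13.0 FPKM (-0.15, adjusted p = 0.0969). Nobox and Lhx8, the homeobox factors of the oocyte, were not tested, with 0 counts over the WT and 2, 5 and 0 counts in the Dnmt3b-/- embryos for Nobox, and 4 to 17 counts in every embryo for Lhx8.

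The targets known from the gonad fell into called and uncalled groups. Of 17 oocyte genes, many of which depend on FIGLA, SOHLH1 or NOBOX, 13 had too few counts to be tested and 0 of the other 4 were called, with a median log2 fold change of -0.18. Ooep, of the subcortical complex of the egg, was at 0.337 and 0.305 FPKM (-0.13, adjusted p = 0.891). The zona pellucida genes Zp1, Zp2 and Zp3 had 0 to 10 counts in any embryo. Kit, a gene that SOHLH factors act on and that many embryonic tissues express, was at 5.84 and 5.98 FPKM (log2 fold change 0.03, adjusted p = 0.880).

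Of 23 genes of meiotic prophase, which follow STRA8-dependent entry in the gonad, 18 were tested, 9 were called higher and 1 lower, with a median log2 fold change of 1.32. Hormad1, a protein of the meiotic chromosome axis, had 2, 0 and 2 counts in the WT and 490, 349 and 493 in the Dnmt3b-/- embryos (8.499, standard error 0.42, adjusted p = 0.000148). Sycp1 (7.73), Tex12 (6.93) and Sycp2 (5.35), all of the synaptonemal complex, rose as well and were each called without any 1 embryo. Tex12 had 0, 0 and 2 counts in the WT and 104, 73 and 70 in the Dnmt3b-/- embryos, and its log2 fold change was 9.45 without WT embryo 3, so that its size rests on 2 WT counts. The ratio of the summed counts was 147.2 for Tex12 (95% counting interval 40.33 to 1223) and 397.0 for Hormad1 (154.7 to 1459). Hormad1, Tex12, Sycp1 and Sycp2, like Taf7l, Mael and Asz1 of the other lists, passed the filter only through the Dnmt3b-/- embryos. Other genes of the same process were not called. Hfm1, a recombination helicase, was at 0.914 and 1.02 FPKM (0.16, adjusted p = 0.542), and Rec8, the meiotic cohesin, was at 1.82 and 1.74 FPKM (-0.07, adjusted p = 0.850). Sycp3 (1.36, adjusted p = 0.181) and Dmc1 (0.997, adjusted p = 0.0463) were also uncalled in the main test, but were called higher without WT embryo 2. Spo11, the nuclease that starts recombination, had 0 to 16 counts in any embryo and was not tested. Syce2 was at 15.8 and 25.2 FPKM (0.67, adjusted p = 0.00502), and passed the fold threshold (1.11) with the GC and length trend removed. Msh5, a mismatch repair relative of meiotic crossovers, was lower (-1.14, adjusted p = 0.0302), and was called 2 of 6 times when an embryo was left out, namely without WT embryo 2 and without Dnmt3b-/- embryo 3. It was at -0.83 (adjusted p = 0.113) with that trend removed.

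Of 23 spermatocyte and piRNA genes, many of which need MYBL1 in the testis, 18 were tested, 9 were called higher and 0 lower, with a median log2 fold change of 1.35. The leading genes were Mael (6.73), Asz1 (4.43), Fkbp6 (4.04) and Piwil2 (3.94), all of the piRNA pathway and each called without any 1 embryo. Piwil2 was at 4.72 without WT embryo 2. Mael had 8, 0 and 9 counts in the WT and 425, 582 and 492 in the Dnmt3b-/- embryos (standard error 0.53, adjusted p = 0.000412). The weakest call, Ccnb3, held 1 of 6 times when an embryo was left out, namely without Dnmt3b-/- embryo 3. Piwil1, a known MYBL1 target, had 6 to 19 counts in any embryo (-0.09, adjusted p = 0.924), and Hspa2 of spermatocytes was at 1.02 and 1.09 FPKM (0.09, adjusted p = 0.790). Tdrd5 was at 0.984 and 0.602 FPKM (-0.70, adjusted p = 0.392). Of 22 spermatid genes, some of which need BRDT, 17 had at most 3 counts in each of the 6 embryos, among them the protamines Prm1 and Prm2. Of the 3 tested, which had a median log2 fold change of 0.39, 1 was called higher, Spaca1 of the acrosome, with 12, 3 and 18 counts in the WT and 68, 65 and 67 in the Dnmt3b-/- embryos (2.88, adjusted p = 0.00393). Odf2, which also serves centrosomes in somatic cells, was at 40.4 and 53.1 FPKM (0.39, adjusted p = 0.00505), and the histone gene Hist1h1t at 3.56 and 2.48 FPKM (-0.52, adjusted p = 0.330).

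**Figure D4:**
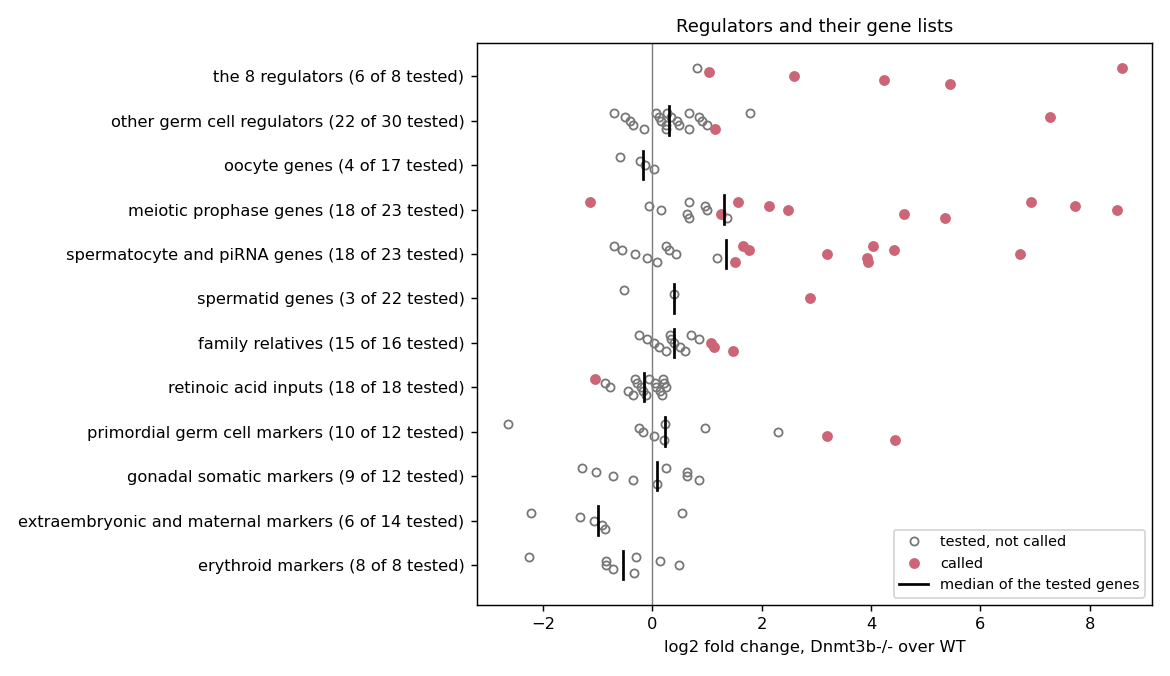
Log2 ratio of Dnmt3b-/- to WT expression (horizontal axis) for the tested genes of each list, with called genes filled, other tested genes open and the median as a black line, except for the 8 regulators. Called genes above 2 occur among the regulators and in the lists of germ cell regulators, meiotic prophase, spermatocyte and piRNA, spermatid and primordial germ cell genes, and the retinoic acid inputs lie between -1.04 and 0.25.

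Transcripts of retinoic acid signalling, the known inducer of Stra8, were detected in both genotypes. All 18 listed genes of this pathway were tested, 0 were called higher and 1 lower, with a median log2 fold change of -0.14. Over all genes tested 2.12% were called higher and 3.78% lower, so 1 lower call is near that share. An adjusted p below 0.05 alone was reached downwards by 3, Rxrb, Cyp26c1 and Rarg, where 18.1% of all genes reached it, and upwards by 0, and 5 lay lower in all mutants than in all WT embryos, as did 26.5% of all genes. The lower gene was the receptor Rxrb, at 10.8 and 5.23 FPKM (-1.04, adjusted p = 0.00181), which was at -0.45 (adjusted p = 0.0331) with the GC and length trend removed. It fell under the fold threshold, at -0.99 and -0.89, without WT embryo 1 and without Dnmt3b-/- embryo 3. Aldh1a2, the main enzyme that makes retinoic acid in the embryo, was at 43.4 and 45.4 FPKM (0.07, adjusted p = 0.684), and the binding proteins Crabp1 at 273.7 and 252.7 FPKM (-0.12, adjusted p = 0.771) and Crabp2 at 320.8 and 366.3 FPKM (0.19, adjusted p = 0.514). The receptor Rarg was at 12.2 and 8.95 FPKM (-0.44, adjusted p = 0.0164), and at 0.07 (adjusted p = 0.735) with the GC and length trend removed. Cyp26c1, which degrades retinoic acid, was at 8.67 and 5.05 FPKM (-0.78, adjusted p = 0.00200), and at -0.13 (adjusted p = 0.448) with that trend removed.

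Markers of the cells that could carry these transcripts were read from the same fit. An E8.5 embryo holds a small number of primordial germ cells. Of 12 genes listed as markers of germ cells, 10 were tested, 2 were called higher (Dazl and Ddx4) and 0 lower. Ddx4 is also counted among the called piRNA genes, and the paper names it among the germline genes with promoter CpG island methylation. The paper names Brdt there too, with both called and uncalled genes of the other lists, such as Mael and Spo11. The median log2 fold change was 0.23 and the lowest -2.64. The summed normalized count of the list was 5160 to 6509 in the WT and 5908 to 7529 in the Dnmt3b-/- embryos. Dazl, an RNA-binding protein of germ cells, had 19, 11 and 5 counts in the WT and 324, 81 and 249 in the Dnmt3b-/- embryos (4.44, adjusted p = 0.00134), and Ddx4, a germ cell helicase, rose from 0.748 to 6.73 FPKM (3.19, adjusted p = 0.00104). The defining early regulators gave no call: Prdm1 was at 2.66 and 2.37 FPKM (-0.17, adjusted p = 0.484), Tfap2c at 2.88 and 3.35 FPKM (0.22, adjusted p = 0.493), and Prdm14 and Nanos3 had 0 to 15 counts in any embryo and were not tested. Alpl was at 18.2 and 15.4 FPKM (-0.24, adjusted p = 0.0927). The higher calls of this list were 2 to 4 over the alternatives, with 4 without Dnmt3b-/- embryo 2. Dppa3 and a further pair were picked with the values known. Dppa3, for which the paper reports a modest increase in Dnmt3b-/- embryos, was not called in the main test. Without WT embryo 2 its log2 fold change was 2.66 (adjusted p = 0.0612). Ifitm3, an early germ cell marker that other tissues share, went from 11.1 to 21.6 FPKM (0.96, adjusted p = 0.00284), and passed the fold threshold without Dnmt3b-/- embryo 1 (1.08), without Dnmt3b-/- embryo 2 (1.005) and with the GC and length trend removed (1.06). Pou5f1 was at -2.64 (adjusted p = 0.0739), and at -0.44 (adjusted p = 0.570) without WT embryo 2.

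Of 12 gonadal somatic markers, 9 were tested and 0 were called, with a median log2 fold change of 0.09, and Amh, Nr5a1 and Fshr had 0 to 15 counts in any embryo. Gata4 (-0.73, adjusted p = 0.102) and Sox9 (0.64, adjusted p = 0.0145) are also expressed outside the gonad. Of 14 extraembryonic and maternal markers, 6 were tested and 0 were called, with a summed count of 16880 to 137500 in the WT and 9606 to 34570 in the Dnmt3b-/- embryos, and 6 of them, placental and decidual genes, were at 0 in each embryo. Their median log2 fold change was -0.999, and -0.21 without WT embryo 2, where the other WT sums were 16880 and 45970. Apob was at 61.1 and 13.2 FPKM (-2.22, adjusted p = 0.0527), and Apoa1 at 184.8 and 101.3 FPKM (-0.87, adjusted p = 0.355). Of 8 erythroid markers all were tested and 0 were called, with a summed count of 12240 to 67830 in the WT and 15340 to 43680 in the Dnmt3b-/- embryos. The median was -0.53, and Hbb-bh1, an embryonic globin, was at 781.5 and 436.1 FPKM (-0.84, adjusted p = 0.230). Without WT embryo 2 the other WT sums were 45750 and 67830, the median was -0.90 and Hbb-bh1 was called lower (-1.23, adjusted p = 0.0307). The part of these cell populations in the increases was not tested. Without WT embryo 2, which was the extreme one in these lists, 5 of the 8 regulators were again called higher.

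The genes that lie beside the regulators were read in the same fit. Of the 32 genes that make up the nearest 2 on each side of the 8 regulators, 27 were tested, 1 was called higher and 0 lower. Over all genes tested these shares were 2.12% and 3.78%. An adjusted p below 0.05 alone was reached upwards by 7 and downwards by 2, beside 17.6% and 18.1% of all genes. The called gene was Cnot4, a ubiquitin ligase gene 82721 bases from Stra8 (log2 fold change 1.05, adjusted p = 0.000788). Magoh, an exon junction complex gene 195525 bases from Dmrtb1, was at 0.83 (adjusted p = 0.000697). Ccdc169, which lies 9108 bases from Sohlh2 on the same strand, had 27 counts over the WT and 44 over the Dnmt3b-/- embryos (0.93, adjusted p = 0.201).

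The genes whose pattern over the 6 embryos was most like that of each regulator were found by Pearson's r of log2(normalized count + 1), as a description over points that share the same split into genotypes. For Sohlh2 these were Ptpra, Cenpc1 and Phka2 (r of 0.999 to 0.997), and for Stra8 2300009A05Rik, Prmt5 and Phospho2 (0.999 to 0.996). Those nearest to Brdt were Topaz1, Snhg11 and Anapc10 (0.999 to 0.998), and those nearest to Dmrtb1 were Ubn1, Sharpin and Ccdc62 (0.998 to 0.994). Mybl1 was followed most closely by Sycp2, Clock and Gm7120 (0.999 to 0.998), and Tcfl5 by Rbm41, Rab1 and Tspan2 (0.997 to 0.995). As many as 908 genes exceeded an r of 0.95 with Brdt and 192 with Dmrtb1, so that likeness of this degree was common. The measure ignores the size of a change, and Ptpra had a log2 fold change of 0.41 beside 8.59 for Sohlh2. Some of the named genes did not reach an adjusted p below 0.05. These were Phka2 (0.0838), Sharpin (0.0523), Ccdc62 (0.346), Rab1 (0.0916) and Tspan2 (0.153), and the other named genes did.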

How the data were processed

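Expression was measured by RNA-Seq in 3 WT and 3 Dnmt3b-/- E8.5 embryos, and the methylation libraries of the series were not analysed here. The authors aligned read pairs to mm10 with TopHat2 2.0.12 and deposited raw counts in RefSeq exons from HTSeq 0.6.0. The authors also deposited a normalized signal (raw count divided by a DESeq2 1.4.5 size factor), and the log2 fold change and adjusted p-value of their own comparison, none of which was used. The RefSeq release and the strand setting are not given in the sources used here.

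Counts were scaled by TMM, and the 15114 genes whose mean reached 10 counts were tested by genotype only with edgeR 4.0.16 (quasi-likelihood test, R 4.3.3) and Benjamini-Hochberg adjustment. All adjusted p-values in the text come from this test unless a setting is named. A call needed a fold change over 2 and an adjusted p under 0.05. Normalized counts are scaled to the mean effective library size. Counting intervals are exact 95% binomial intervals. FPKM was computed from the raw counts and the exon length of a RefSeq annotation of GRCm38.p6, in which 22604 genes matched by symbol and 1276 by an older symbol. A permutation test of 3 against 3 embryos cannot go below an exact two-sided p of 0.1 and none is given. On simulated counts with 200 genes changed 4-fold among 15026 tested, edgeR recovered 97.5% of them and called 6 others. Each simulated gene had the same dispersion and no library was set apart. The rate therefore checks that the test runs, and does not measure the reliability of calls such as those of Dmrtb1 and Tcfl5.

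The regulators and lists were chosen with earlier results of these data known. Named are all 8 regulators, Dnmt3b, of each list the called genes up to the 4 largest changes and up to 2 uncalled genes with the most counts, the 3 genes of most similar pattern for each tested regulator, and markers by which a library stands apart. Other genes, such as Nobox, Lhx8, Rec8, Spo11, Piwil1, Ccnb3, Mybl2, Tcf3, Cyp26c1, Prdm1, Tfap2c, Cnot4, Ccdc169 and the zona pellucida and protamine genes, were picked once their values had been seen. Rnf212 and 2 further regulators of the lists had no row under the symbol used. Alternatives were DESeq2 1.42.0 and its size factors, total counts, no filter or a mean of at least 50 counts, limma 3.58.1 with pseudocounts of 1 and 5, a replicate block, each embryo left out, other thresholds, and removal of a spline trend (5 degrees of freedom) on GC content and length.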

Additional observations from a re-analysis of the deposited data

How the results depend on the processing

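Sohlh2, Stra8 and Brdt kept an adjusted p below 0.05 and their direction in all 15, 14 and 15 alternatives in which they were tested, and no regulator changed direction. The number of regulators called higher, 5 of 8, was 3 with a mean of at least 50 counts (Dmrtb1 and Stra8 were then not tested) and 3 at an adjusted p below 0.01. It ranged from 3 to 5 with each embryo left out in turn, with 3 without WT embryo 1 and without WT embryo 3, where Dmrtb1 and Tcfl5 were lost. The replicate numbers did not pair the embryos (correlations of same-numbered deviations of -0.05, -0.15 and -0.01), and with a replicate block 4 regulators were called and Dmrtb1 had a log2 fold change of 2.58 (adjusted p = 0.0529), while 265 genes in all were higher and 516 lower. The fit with the GC and length trend removed called 266 genes higher and 184 lower in place of 320 and 571, and Mybl1 was at 0.12 there. Scaling to total counts moved the median of all genes from -0.03 to -0.11 and called 246 genes higher and 710 lower. The relatives, inputs and markers had 6 calls, and 18 with no minimum fold change. The higher calls summed over the germ cell lists stayed within 1.5 times of 21, at 18 to 26, and so did those of the meiotic and the piRNA lists. Those of the other germ cell regulators went from 2 to 1 with the GC trend removed, at an adjusted p below 0.01 and without WT embryo 1, WT embryo 3 or Dnmt3b-/- embryo 2, and to 4 with no minimum fold change. Those of the spermatid genes went from 1 to 0 with a mean of at least 50 counts and to 2 with no minimum fold change. DESeq2 gave no adjusted p for Dmrtb1. The cause of these changes was not tested where no fewer genes or embryos entered.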
